A study of Rattus norvegicus with 8 samples.

Results

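The clock genes described here were those whose symbol was Clock, Arntl, Per1, Per2, Per3, Cry1, Cry2, Nr1d1, Nr1d2 or Dbp. All 10 were found, with 29 alternative polyadenylation (APA) sites, among 18003 gene symbols and 98356 APA sites in the data. The list was set by gene name and not by measured values.

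The circadian clock is a transcription feedback loop that runs in nearly every cell, and the neurons that keep it in step with daylight sit in the suprachiasmatic nucleus of the hypothalamus. CLOCK and BMAL1, the protein of Arntl, bind E-box sequences and switch on the Per and Cry genes, whose proteins return to the nucleus and block CLOCK and BMAL1. A further loop runs through Nr1d1 and Nr1d2, which encode the nuclear receptors REV-ERBα and REV-ERBβ and repress Arntl, and Dbp carries the rhythm to output genes through D-box sequences. In brain tissue, Per1 is also known as a gene that neuronal activity and stress hormones can raise within about an hour.

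The samples were hypothalami (mediobasal in the design text, and labelled only hypothalamus otherwise) of adult male Long-Evans rats, taken 1 hr after 10 min in a vapor chamber, during which 4 rats received vaporized cannabis plant matter and 4 air-treated controls sat in the same apparatus with the vaporizer unfilled. Food was withheld between exposure and tissue collection in both groups. Rats were kept on a reversed light cycle, and the clock time of tissue collection, to which these genes are sensitive, was not given in the sources used here. Whole transcriptome termini site sequencing (WTTS-Seq) counted transcripts by reads from their polyadenylated ends, with 1 APA site to a read, so that transcript length did not enter the counts. The values are normalized counts, that is, reads on a site after division by the library's size factor, and a gene total is the sum over the sites of a gene.

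The libraries held from 1159811 to 3706778 reads on sites, and 1 read was worth from 0.664 to 1.99 normalized counts. Air control 4 and cannabis 1 had the fewest sites with a read at equal depth. When every library was thinned to 1159811 reads, 72655 sites would have had a read in air control 4 and 72942 in cannabis 1. Cannabis 5 followed at 74537, and the others lay at 77717 to 80814. At 16.9% of all gene symbols both air control 4 and cannabis 1 lay below the other 6, and at 8.47% both lay above. These shares were not computed for other pairs of libraries. Air control 4 and cannabis 1 belong to different groups, so values of the clock genes lowest in them are given with and without them. The defining genes of hypothalamic neurons (Hcrt, Pmch, Agrp, Trh, Oxt and Sim1) were each above 0 in all 8 libraries. Their summed level was 1716 to 2448 normalized counts in controls and 2480 to 3969 in cannabis-exposed rats, without overlap (exact permutation test, two-sided, p = 0.0286, the smallest that 4 against 4 rats allow). This sum includes Oxt, for which the study had already listed a site as higher after cannabis. It weights each gene by its count and is not given gene by gene here. The summed markers of endothelium (81.1 to 88.0 against 93.0 to 115) and of thalamus and cortex (129 to 147 against 158 to 196) did not overlap either. Of the thalamus and cortex markers, 2 of 3 were measured, Tcf7l2 and Prkcd, without Slc17a7. The endothelium gene Cldn5 was at 0 in at least 1 library. Summed markers of neurons, astrocytes, oligodendrocytes, microglia, choroid plexus and pituitary overlapped. Of the 3 pituitary markers 1 was measured, Cga, at 101 to 688 normalized counts, without Gh1 and Prl. The choroid plexus genes Ttr and Folr1, measured without Kl, were each at 0 in at least 1 library and together no higher than 28.6. In whole tissue, fewer cells of a type and less RNA per cell cannot be told apart.

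Factors of the loop act on each other's promoters through short DNA elements, and the exact matches to these are printed to show where members could be linked. RefSeq promoters (assembly GRCr8, not the Rnor_6.0 build of the counts, 250 bases before to 50 after each start) were matched for 9 of the 10 genes, Arntl under its symbol Bmal1, and Cry1 was not matched. Both strands were searched for an E-box (CACGTG), a D-box (TTANGTAA), a RORE (AGGTCA preceded by AANT), which REV-ERB proteins bind, and a cyclic AMP response element (TGACGTCA). Each of the following lines gives 30 bases, 5′ to 3′ on the strand of the gene, with the matched letters in capitals.
Arntl, RORE beginning 19 bases before the start, chr1:176766299-176766328, plus strand: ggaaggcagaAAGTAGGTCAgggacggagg
Per2, D-box beginning 192 bases before the start, chr9:99497167-99497196, minus strand: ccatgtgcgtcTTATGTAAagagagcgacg
Nr1d1, E-box beginning 191 bases before the start, chr10:84229628-84229657, minus strand: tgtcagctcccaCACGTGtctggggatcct

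These 3 matches were the only ones in the windows of the 9 genes. Of all 33469 promoters in the table, 6.42% held the E-box, 2.24% the D-box, 0.245% the RORE and 1.83% the cyclic AMP response element. The Nr1d1 match lay in 1 of its 2 listed promoters. A match describes the letters in this window and does not show that a factor was bound in these rats.

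All 10 clock genes were read in hypothalamus, at levels that spanned a wide range (plot of clock gene totals). Dbp had the highest mean total over the 8 libraries, at 142 ± 26.1 normalized counts (SD, n = 8), and was 2670th of the 18003 symbols by mean level. Cry2 followed at 136 ± 53.8, Per3 at 74.9 ± 18.7, Clock at 71.6 ± 8.35, Nr1d2 at 38.9 ± 13.6 and Nr1d1 at 20.6 ± 8.0 (SD, n = 8). The remaining 4 were close to the limit of detection. Per2 was at 8.49 ± 5.09, Per1 at 6.86 ± 4.32, Cry1 at 5.34 ± 5.11 and Arntl at 2.50 ± 1.85 normalized counts (SD, n = 8), from 80, 68, 57 and 22 reads in all libraries together. Among neighbours in this order, Clock was above Nr1d2 in 8 of 8 libraries and their ranges did not overlap. For the other 8 neighbouring pairs the ranges overlapped, and Dbp was above Cry2 in 5 of 8 libraries, Per3 above Clock in 4, Per2 above Per1 in 4, Per1 above Cry1 in 5 and Cry1 above Arntl in 5.

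**Figure D1:**
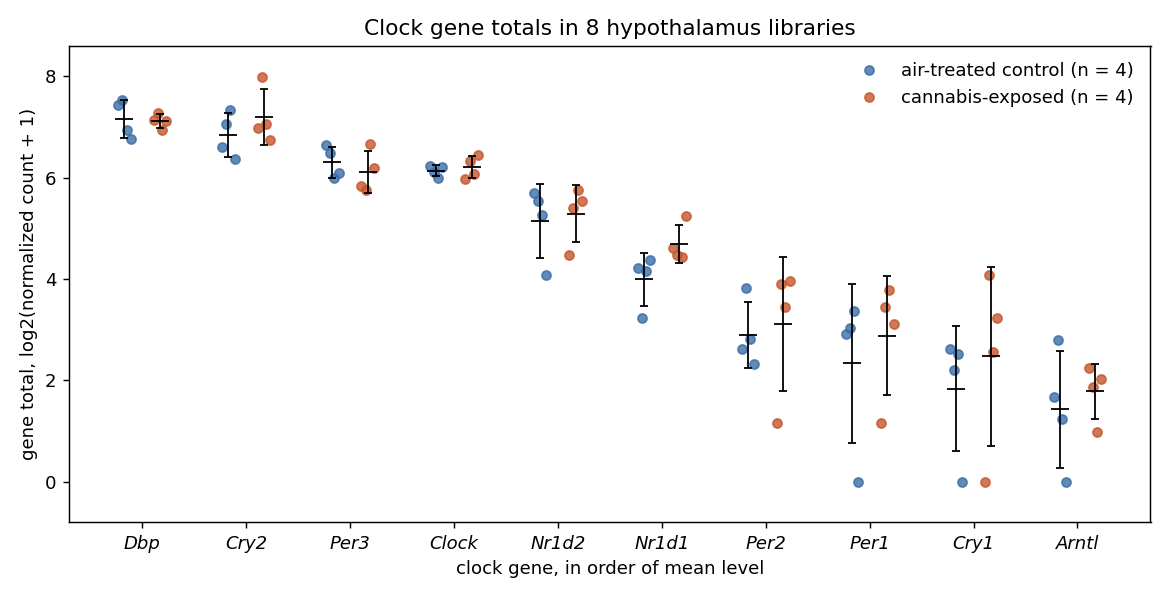
Gene totals of the 10 clock genes as log2(normalized count + 1), in order of mean level. Each point is 1 library, and bars give the mean and SD of 4 libraries on this scale. Nr1d1 is the gene whose groups do not overlap, and the lowest points of Nr1d2, Per1, Per2 and Cry1 are air control 4 and cannabis 1.

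Cannabis-exposed rats were compared with air-treated controls by limma on log2(normalized count + 1) over all 18003 gene totals. None of the 10 clock genes had an adjusted p under 0.1 or an unadjusted p under 0.01 in limma, and 0 had an unadjusted p under 0.05, which was also the count in edgeR and DESeq2. Over all symbols 0.278% had p under 0.01 (0.1% higher and 0.178% lower in cannabis-exposed rats), 2.41% had p under 0.05, and 1 symbol (0.00555%) passed the adjusted threshold. The clock genes had a median log2 fold change of 0.29, with 8 of 10 above 0, beside a median of 0.05 over all symbols, of which 10153 of 18003 were above 0. The median and the count depended on which libraries were kept. Without air control 4, 5 of 10 clock genes were above 0 with a median of -0.04. Without air control 4 and cannabis 1 together, 7 of 10 were above 0 with a median of 0.22. A replicate block, which takes air control 4 and cannabis 5 out of the difference, left 3 of 10 above 0 with a median of -0.21. The intervals of the differences set what these 8 libraries could show (plot of fold changes). For Dbp and Clock, a change beyond 0.688 to 1.36-fold and 0.748 to 1.46-fold lay outside the 95% interval, whereas for Cry1 the interval ran from 0.443 to 5.49-fold.

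**Figure D2:**
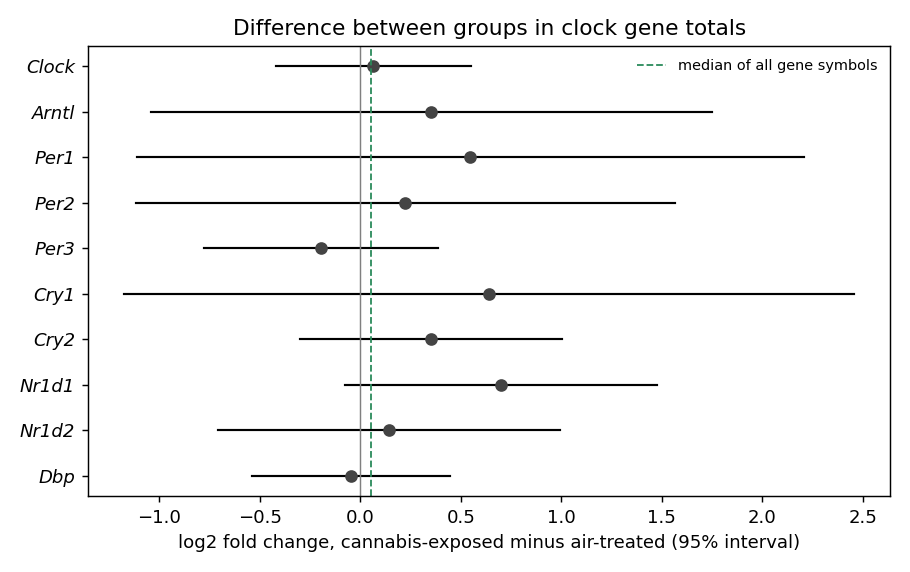
Log2 fold change of each clock gene total, cannabis-exposed minus air-treated, on the log2(normalized count + 1) scale, with the 95% interval from limma (4 against 4 rats). Every interval includes 0, the Nr1d1 interval begins at -0.08, and those of Arntl, Per1, Per2 and Cry1 are the widest.

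Clock and Arntl encode the activators of the loop. Clock totals were 73.8, 68.2, 63.1 and 73.5 normalized counts in air controls 1 to 4 and 62.1, 79.7, 65.9 and 86.0 in cannabis-exposed rats 1, 2, 3 and 5. The highest and the lowest rat were both cannabis-exposed, and the groups overlapped. The log2 fold change of Clock was 0.07 ± 0.22 (SE), limma gave p = 0.775 (adjusted p = 0.999, as for each clock gene) and exact permutation p = 0.629. Clock was steady for its depth, since its spread between libraries was 1.18 times the variance that counting alone gives, where the median of symbols with 500 to 2000 reads was 6.55. Arntl totals were 2.19, 5.99, 1.34 and 0 in controls and 3.73, 2.66, 0.984 and 3.07 in cannabis-exposed rats. These values came from 0 to 5 reads a library, and no read in air control 4 allows up to 5.96 normalized counts there, close to the highest value measured. A difference in Arntl was therefore not detectable at this depth (log2 fold change 0.35, standard error 0.65, limma p = 0.594, exact permutation p = 0.600).

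Per1, Per2 and Per3 encode the period proteins, which repress CLOCK and BMAL1. Per1, the one known to respond within an hour to neuronal activity, had totals of 6.58, 7.18, 9.40 and 0 normalized counts in controls and 1.24, 9.96, 12.8 and 7.68 in cannabis-exposed rats. The lowest values were those of air control 4 and cannabis 1, with 0 and 1 read. For Per1 the log2 fold change was 0.55 ± 0.77 with all libraries (SE, limma p = 0.490, exact permutation p = 0.486) and ranged from -0.23 to 1.12 when single libraries were left out. Without air control 4 and cannabis 1 it was 0.34. Per2 totals were 5.12, 13.2, 6.04 and 3.97 in controls and 1.24, 14.0, 9.84 and 14.6 in cannabis-exposed rats, again lowest in cannabis 1 and air control 4. Its log2 fold change was 0.23 ± 0.62 (SE, exact permutation p = 0.83), and the groups overlapped. It was 0.68 without air control 4 and cannabis 1.

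Per3 was read far more often than Per1 or Per2, at 98.7, 88.6, 63.1 and 67.5 normalized counts in controls and 55.9, 53.1, 100 and 72.2 in cannabis-exposed rats. Cannabis 3 was the highest of the 8 rats and cannabis 2 the lowest. For the Per3 total the log2 fold change was -0.20 ± 0.27 (SE), with limma p = 0.483 and exact permutation p = 0.486.

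Cry1 and Cry2 encode the cryptochromes, the partners of the period proteins. Cry1 totals were 5.12, 3.59, 4.70 and 0 in controls and 0, 15.9, 4.92 and 8.45 in cannabis-exposed rats. Air control 4 and cannabis 1 had no Cry1 read, which allows up to 5.96 and 3.73 normalized counts, so that neither can be set below the control with the fewest, at 3.59. For Cry1 the log2 fold change was 0.64 ± 0.84 (SE, limma p = 0.460, exact permutation p = 0.514). It was 0.031 without air control 4, 1.47 without cannabis 1 and 0.86 without both, so that single libraries decided its size. Cry2 was at 95.8, 133, 160 and 81.4 in controls and at 125, 254, 132 and 105.99 in cannabis-exposed rats. Cannabis 2 stood well above the rest, with 383 of the 1278 Cry2 reads. The spread of Cry2 was 26.0 times the counting variance, above the 6.55 of symbols of like depth. Its log2 fold change of 0.35 ± 0.30 (SE, limma p = 0.263, exact permutation p = 0.371) was 0.09 without that library.

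Nr1d1, the gene of REV-ERBα, was the clock gene whose groups did not overlap. Its totals were 17.5, 8.38, 16.8 and 19.9 normalized counts in controls and 23.6, 21.3, 20.7 and 36.9 in cannabis-exposed rats, from 7 to 48 reads a library. The log2 fold change was 0.70 ± 0.36 (SE, 95% interval -0.08 to 1.48). Limma gave p = 0.0735 (adjusted p = 0.999), and exact permutation p = 0.0286 was the smallest possible. Of all 18003 symbols, 1.98% had groups that did not overlap. Gaps were small, as the highest control was at 19.9 and the lowest cannabis-exposed rat at 20.7. The value was 0.44 without air control 2, the control with 7 reads, 0.52 without cannabis 5, and 0.85 without air control 4 and cannabis 1 together. The sums of the hypothalamic neuron, endothelium and thalamus and cortex markers were higher in the same 4 rats, and their part in the Nr1d1 difference was not tested.

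Nr1d2, the gene of REV-ERBβ, had overlapping groups. Its totals were 51.2, 45.5, 37.6 and 15.9 normalized counts in controls and 21.1, 41.2, 53.1 and 45.3 in cannabis-exposed rats. The 2 low values were those of air control 4, with 8 reads, and cannabis 1, with 17 reads. At the mean of the other 6 libraries these depths would have held 23.0 and 36.8 reads. The 95% Poisson interval, which covers counting error only, was 6.86 to 31.3 normalized counts in air control 4 and 12.3 to 33.8 in cannabis 1. Those of the other 6 libraries began at 28.4 (air control 3) to 39.9, so that the intervals of some overlapped these. Between groups the log2 fold change was 0.14 ± 0.40 (SE, limma p = 0.726, exact permutation p = 0.657), and without air control 4 and cannabis 1 it was 0.059.

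Dbp, the output factor and the highest of the 10 clock genes by mean total, was at 171, 184, 122 and 107 in controls and 140, 153, 122 and 138 in cannabis-exposed rats. The cannabis-exposed rats lay inside the range of the controls. The log2 fold change was -0.05 ± 0.23 (SE), with limma p = 0.843 and exact permutation p = 0.83. For Dbp and Cry2, the 2 clock genes with the most reads, the differences were thus within the spread between rats.

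Per1, Per2, Cry1 and Nr1d2 had their lowest values in air control 4 and cannabis 1 (plot of totals against sites detected). At these 4 of the 10 clock genes the values of both libraries lay below those of all other 6, beside 16.9% of all symbols, 12.1% of those with 20 to 100 reads, as Per1, Per2 and Cry1 had, and 18% of those with 100 to 500 reads, as Nr1d2 had. For Per1, Per2 and Cry1 these values are 0 to 2 reads, and for Per2 and Cry1 levels as high as the lowest of the other libraries lay within counting error. For Per1 the 95% Poisson interval reached 7.33 in air control 4 and 6.92 in cannabis 1, beside 6.58 in the lowest of the others. The limit of 3 reads was lower in air control 4, at 5.96. Clock, Arntl, Per3, Cry2, Nr1d1 and Dbp did not show this, with Nr1d1 at 19.9 and 23.6 normalized counts in these libraries and 8.38 to 36.9 in the others. The number of sites detected at equal depth was also lowest in these libraries, and its part in the 4 genes was not tested.

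**Figure D3:**
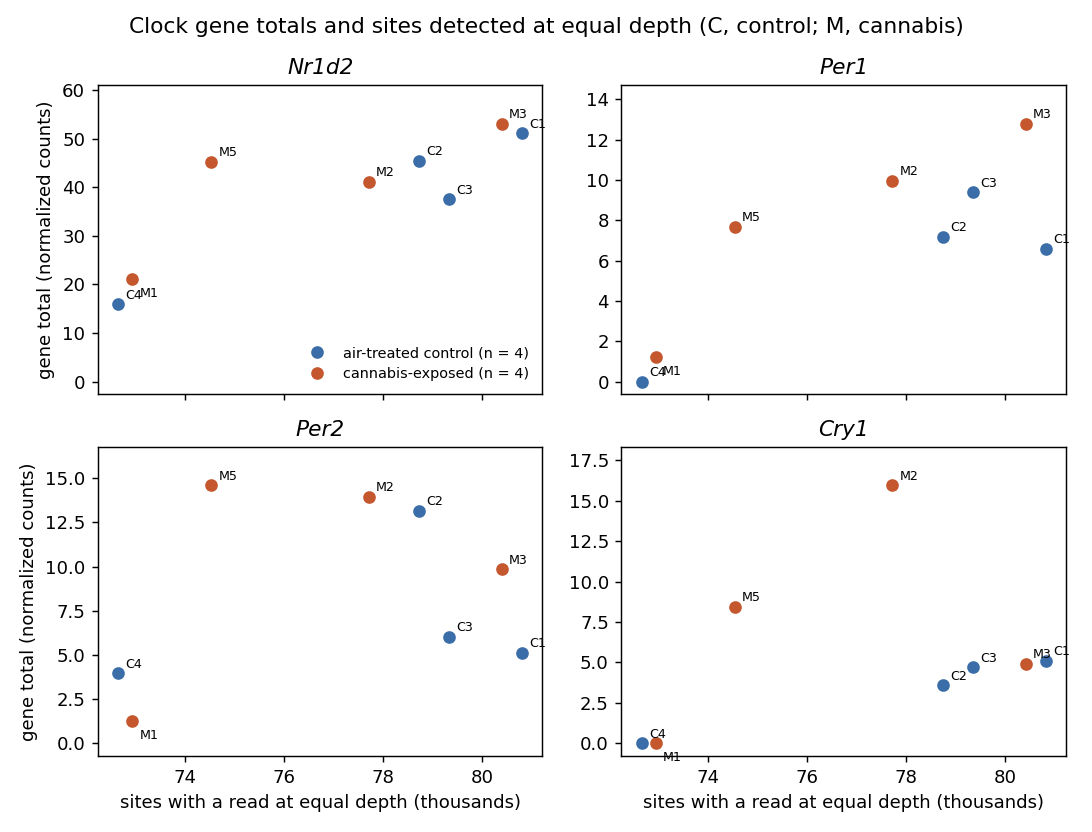
Totals of Nr1d2, Per1, Per2 and Cry1 in normalized counts against the number of sites that would have a read if each library were thinned to 1159811 reads. Points are libraries (C1 to C4, air-treated controls, and M1, M2, M3 and M5, cannabis-exposed rats). C4 and M1 lie at the lower left in every panel.

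Because clock genes are known to cycle together, their totals were correlated across the 8 libraries in all 45 pairs. By the exact permutation test 5 pairs had p under 0.05 for Pearson's r, and none after Benjamini-Hochberg adjustment over the 45. In 3 of these pairs, Per1 with Nr1d2, Per1 with Cry1 and Cry1 with Nr1d2, air control 4 and cannabis 1 formed a cluster of their own. Within the other 6 libraries r was 0.0054 for Per1 with Nr1d2 (Spearman's rho -0.09, exact permutation p = 0.983 for r), 0.20 for Per1 with Cry1 (rho 0.20, p = 0.665) and -0.30 for Cry1 with Nr1d2 (rho -0.14, p = 0.581). These 6 libraries, with a narrower range of all 3 genes, cannot show whether a relation held. Arntl with Dbp had r = 0.84 (exact permutation p = 0.00766, adjusted p = 0.123) and rho = 0.79 (p = 0.0279, adjusted p = 0.518) over 8 libraries, with at most 5 Arntl reads in any of them. Without air controls 2 and 4, the farthest from the median of Arntl, r was 0.54 (exact permutation p = 0.276), and without air control 4 and cannabis 1 it was 0.82 (exact permutation p = 0.0431). Without air controls 2 and 4 the relation no longer had p under 0.05. The remaining 6 libraries, with a narrower range of Arntl, cannot show whether it held. Per2 with Cry1 had r = 0.83 (exact permutation p = 0.00724, adjusted p = 0.123) and rho = 0.75 (p = 0.0380, adjusted p = 0.518). Without cannabis 1 and 5, the farthest from the median of Per2, r was 0.69 (exact permutation p = 0.0944), and without air control 4 and cannabis 1 it was 0.47 (exact permutation p = 0.374). With 6 libraries the relation no longer had p under 0.05 in either case. Per3 with Nr1d2 had r = 0.57 (exact permutation p = 0.151) and rho = 0.79 (p = 0.0279, adjusted p = 0.518). Its r was 0.87 without air control 4 and cannabis 1 (exact permutation p = 0.0292). When air control 1 and cannabis 3, the farthest from the median of Per3, were left out, r was 0.31 (exact permutation p = 0.576). Without air control 4 and cannabis 1, 2 of the 45 pairs had p under 0.05 for r, and none after adjustment.

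The 29 sites were spread unequally over the genes (plot of sites). Arntl, Per1 and Cry1 had 1 site each, Per2, Cry2 and Dbp 2, Nr1d1 3, Per3 and Nr1d2 4 and Clock 9, numbered here within a gene by mean count. Their positions and location classes were not analysed here, so a site may lie in an intron or at a transcript end. Dbp site 1 held 98.1% of the mean Dbp count and Cry2 site 1 held 98.6% of that of Cry2. Per3 site 1 held 71.5% and Nr1d2 site 1 held 62.5%. By contrast, Clock site 1 held 21.3% of the Clock count and Nr1d1 sites 1, 2 and 3 held 34.8%, 33.8% and 31.5%.

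**Figure D4:**
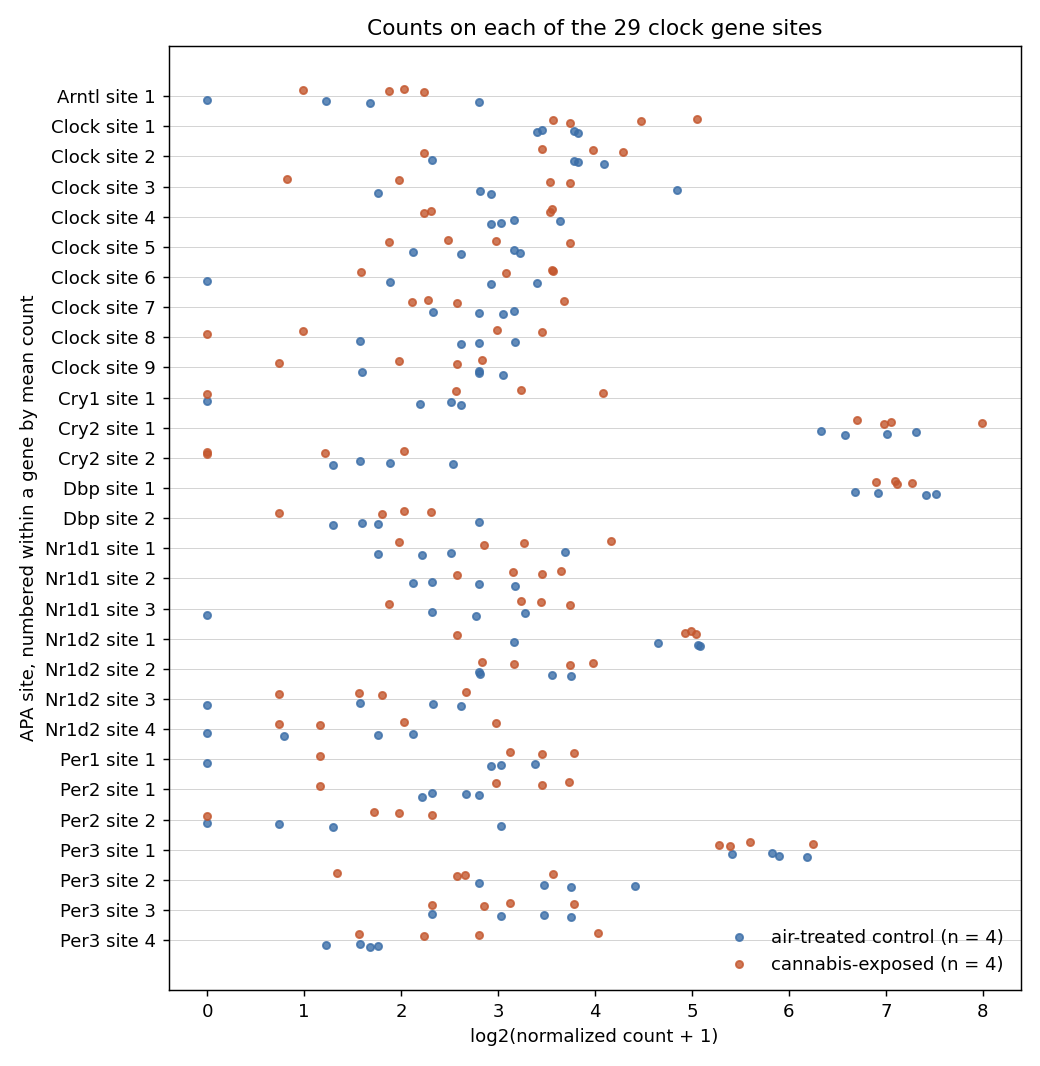
Counts on each of the 29 clock gene sites as log2(normalized count + 1), with 1 point per library. Dbp site 1, Cry2 site 1 and Per3 site 1 lie far above the other sites of their genes, and the groups overlap at every site.

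At all 29 sites the groups overlapped, beside 2.0% of the 98356 sites where they did not. In the limma fit of all sites no clock gene site had p under 0.01, which 0.381% of all sites had (0.123% higher and 0.258% lower), and 0 had p under 0.05, which 3.03% had. With edgeR and with DESeq2 1 clock gene site, Per3 site 4, had p under 0.05 (adjusted p = 1.00 in both). Adjusted p was under 0.1 at 0.00102% of all sites and at 0 of the 29. The lowest limma p belonged to 2 small Per3 sites with log2 fold changes of opposite sign. Per3 site 2 had 12.4, 20.4, 10.1 and 5.96 normalized counts in controls and 4.97, 5.31, 10.8 and 1.54 in cannabis-exposed rats, which differed by -1.07 (log2) ± 0.56 (SE), with limma p = 0.0679 and exact permutation p = 0.0857. Per3 site 4 had 2.19, 2.39, 1.34 and 1.99 in controls and 3.73, 5.98, 1.97 and 15.4 in cannabis-exposed rats, which differed by 1.10 (log2) ± 0.59 (SE), with limma p = 0.0780 and exact permutation p = 0.114. Only cannabis 3 overlapped the controls at site 4, and the highest value rested on the 20 reads of cannabis 5. Per3 site 1, which carried most Per3 reads, had a log2 fold change of -0.20 ± 0.37 (SE, limma p = 0.599, exact permutation p = 0.457).

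All 3 Nr1d1 sites had log2 fold changes above 0, of 0.52, 0.60 and 0.98 (exact permutation p = 0.429, 0.143 and 0.286), and each had overlapping groups. Nr1d2 site 1 repeated the pattern of the gene total, at 32.9, 32.3, 24.2 and 7.94 in controls and 4.97, 31.9, 29.5 and 30.7 in cannabis-exposed rats. Clock site 1 was at 13.2, 9.58, 12.8 and 9.93 in controls and 12.4, 21.3, 10.8 and 32.3 in cannabis-exposed rats. Its log2 fold change was 0.60 ± 0.47 (SE, limma p = 0.218, exact permutation p = 0.171), and 0.31 without cannabis 5.

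Use of a site within its gene was measured as the percentage of the gene total. Only Clock sites 1 and 2 reached a mean of 10 normalized counts in a gene with 2 such sites. Clock site 1 held 16.4% ± 3.19 under air and 25.1% ± 9.27 under cannabis (SD, n = 4), a difference of 8.75 percentage points (exact permutation test, p = 0.143, adjusted p = 1.00 over 10252 site shares). Without cannabis 5 the difference was 4.63 points. Clock site 2 held 16.7% ± 7.58 and 15.8% ± 8.44 (exact permutation test, p = 1.00). Over all 10252 shares, 1.6% reached the smallest p. With a minimum of 5 normalized counts, 15 shares of the clock genes were tested and none reached it. Per3 site 2 then held 15.1% ± 6.01 of Per3 under air and 7.95% ± 3.96 under cannabis (SD, n = 4, exact permutation test, p = 0.114).

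Other genes of the clock gave a similar picture (plot of gene lists). Of 13 further loop and output regulators, 10 were measured, and 0 had p under 0.01 or 0.05 in limma, edgeR or DESeq2. Their median log2 fold change was -0.13, from -0.71 for Bhlhe40, a repressor of CLOCK and BMAL1, to 0.45 for its relative Bhlhe41. Tef and Hlf, which bind the same D-box as Dbp, had higher levels than Arntl in every library, at 188 to 416 and 91.7 to 385 normalized counts. Rora and Rorb, the activators that compete with REV-ERB at the RORE, were at 70.8 to 118 and 76.8 to 131. Of 12 kinases, phosphatases and ubiquitin ligase parts that act on clock proteins, 12 were measured and 0 had p under 0.05 by any of the 3 tools. Their median was 0.17, and Csnk1d and Csnk1e, the casein kinases that phosphorylate period proteins, had log2 fold changes of 0.30 and 0.25 (exact permutation p = 0.114 and 0.457).

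Of 12 peptides, receptors and regulators of the suprachiasmatic nucleus, 10 were measured, and 1 was higher in cannabis-exposed rats with p under 0.01, which 0.1% of all symbols were. This was Avp, vasopressin, which is made in suprachiasmatic neurons and in far larger amounts in magnocellular neurons. Its totals were 3082, 1178, 1054 and 2494 normalized counts in controls and 5799, 3278, 4343 and 6314 in cannabis-exposed rats, without overlap. The log2 fold change of Avp was 1.44 ± 0.34 (SE), with limma p = 0.000924 and exact permutation p = 0.0286, and the adjusted p of 0.999 missed the threshold. The study had already listed an Avp site as higher after cannabis. In a separate cohort it reported Avp as increased by quantitative PCR, but named only Slc6a3 as reaching significance. Since the lists were chosen with earlier results known, the count in this list is no independent result. The sums of the hypothalamic neuron markers, which include Oxt, another magnocellular peptide, and of the endothelium and thalamus and cortex markers were higher without overlap in the same 4 rats, and their part in the Avp difference was not tested. Vip, the peptide of the light-receiving part of the nucleus, was at 35.7 to 79.0 in the 8 libraries, with a log2 fold change of -0.13 (exact permutation p = 0.657). Receptors Vipr2 and Prokr2 were at 3.59 to 6.91 and 2.30 to 15.9. Of 10 acute response genes, which share cyclic AMP or glucocorticoid control with Per1, 8 were measured and 0 had p under 0.05 by any of them. Fos was at 9.93 to 21.5 normalized counts with a log2 fold change of -0.10, and Fkbp5, a glucocorticoid target, at 29.8 to 63.4 with 0.16 (exact permutation p = 0.800 and 0.571).

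**Figure D5:**
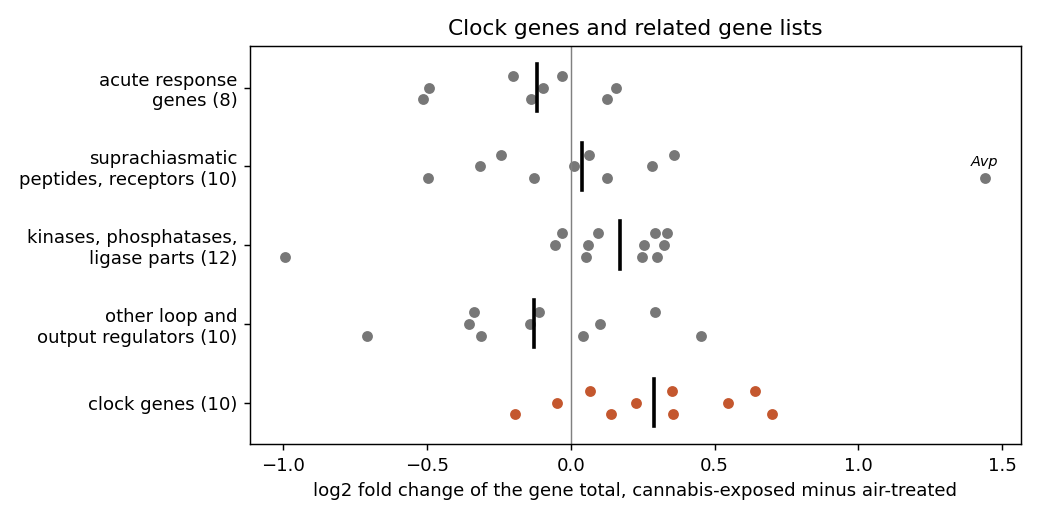
Log2 fold change of gene totals, cannabis-exposed minus air-treated, on the log2(normalized count + 1) scale, for the clock genes and 4 related lists. Each point is 1 gene, the number of measured genes stands in brackets, and the vertical bar is the median of the list. Avp is the single gene with p under 0.01 in limma.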

How the data were processed

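The authors quality-filtered reads (FASTX Toolkit), removed their leading T stretch, aligned them to Rnor_6.0 by TMAP, grouped read ends as APA sites and named genes through Cuffcompare. The deposited values are a signal: normalized counts per site, for which the authors divided reads by DESeq2 size factors, with 1 file per library and no pooling. Every site held at least 16 reads over 8 libraries. Files were joined by row, with identical symbols in each. All values (100%) were whole multiples of 1 read within 0.01 reads, which gave back the reads.

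All 98356 sites and 18003 gene totals were fitted with limma 3.58.1 (R 4.3.3, lmFit, eBayes with trend) on log2(normalized count + 1), without covariates or a filter on low values, and Benjamini-Hochberg adjustment covered all features. Fold changes are on this scale, on which the pseudocount shifts the values of low genes. Calls were adjusted p under 0.1 and, as in the study, p under 0.01. Permutation tests were exact and two-sided. Intervals are 95%, and no reads allow up to 3. Intervals and limits cover counting error only. Depth (22 to 1278 reads a clock gene) limits precision. Nothing beyond separate samples is labelled for replicates, so p-values measure the spread between these samples.

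The clock genes and lists were chosen with earlier results of these data known. The rule named every clock gene, its largest site, its sites with a mean of at least 10 or p under 0.01, and genes of other lists with p under 0.01. Further sites and list genes were chosen for their roles or after their values were seen. Recovered reads were tested with edgeR 4.0.16 and DESeq2 1.42.0. Scripts, tested on simulated data, used Python 3.11.15 with numpy 2.4.6 and pandas 2.3.3, scipy 1.17.1 for permutations, and matplotlib 3.10.9.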

Additional observations from a re-analysis of the deposited data

Results flagged for a closer look

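Nr1d2 site 1 in cannabis 1 was at 4.97 normalized counts (4 reads), far below the other cannabis-exposed rats at 29.5 to 31.9, with a gap to the nearest that exceeded Dixon's 95% critical value for 4 samples. Among the controls the same site was at 7.94 (4 reads) in air control 4 and at 24.2 to 32.9 in the others. Of 42 groups of 4 libraries examined, this was the 1 that met the criterion, and chance alone flags about 1 in 20.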

How the results depend on the processing

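In all alternatives run (replicate block, single libraries left out, pseudocounts, a minimum mean, edgeR, DESeq2, equal totals, no trend), 0 clock gene totals and 0 sites had p under 0.01, and Nr1d1 stayed above 0. Over all symbols, 24 to 98 totals had p under 0.01, against 50. Below limma p 0.05 were Nr1d1 without air control 4 and, among sites, Per3 site 2 without air control 4 or cannabis 3, Per3 site 4 without cannabis 3, and Cry1 site 1 without cannabis 1. Per3 site 2 was also below it (log2 -1.36) without air control 4 and cannabis 1 together. Correlations of deviations were -0.23, 0.09 and -0.07 between rats that shared a replicate number, and -0.39 to 0.49 between rats that did not. So few values cannot decide whether the numbers mark pairs. The replicate block leaves air control 4 and cannabis 5 out of the difference, since no rat of the other group shares their number. On rats 1, 2 and 3 of each group, log2 fold changes reversed for Arntl (-0.20), Per1 (-0.31), Per2 (-0.25, site 1 -0.032), Cry1 (-0.22) and Nr1d2 (-0.30). Chosen after seeing the data, leaving out air control 4 and cannabis 1 together gave Arntl -0.27, Clock site 2 0.0091, Nr1d2 site 1 0.054, and 1 site share at the smallest p of 0.1 (Per3 site 2, -9.54 points), against 0. Clock site 2 was 0.020 in edgeR with TMM, 0.0062 with DESeq2 factors and 0.0055 in DESeq2, and Nr1d2 site 1 was 0.0011 in edgeR with TMM. Single libraries left out gave -0.014 to 0.14 for Clock, -0.12 to 0.81 for Arntl, -0.23 to 1.12 for Per1, -0.057 to 0.88 for Per2, 0.031 to 1.47 for Cry1, -0.22 to 0.42 for Nr1d2 and -0.18 to 0.076 for Dbp. For sites they gave 0.31 to 0.81 (Clock site 1, 0.26 with the replicate block), -0.41 to 0.41 (Clock site 2), -0.19 to 0.088 (Dbp site 1), -0.55 to 0.50 (Nr1d2 site 1) and, for the shares, 4.63 to 11.7 points (Clock site 1) and -4.60 to 2.43 points (Clock site 2). On the low genes, edgeR with TMM gave 0.041 for Arntl, 0.29 for Per1, 0.47 for Per2 and 0.94 for Cry1. None of these values passed a test. Depth limits Arntl, Per1, Per2 and Cry1 most.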
